A study of Rattus norvegicus with 23 samples.

Results

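The periodontal ligament of the right first mandibular molar was compared with that of the left one in the control animals of a rat study of unopposed molars, which are teeth that have lost their opposing tooth. The members were all arrays whose source label names a control. They are 12 of the 23 arrays and come from 6 of the 12 animals, each with a right and a left molar. Arrays that shared a condition and a numeral in their titles were taken as the molars of 1 animal, which the labels do not state in words. The animals are called C1, C2 and C3 (31 days old) and C4, C5 and C6 (43 days old). The 5 experimental animals with both molars are E1 and E3 (31 days) and E4, E5 and E7 (43 days), and serve here only as a reference. All animals were male Wistar rats, described as 4 weeks old, and the labels name no allele, agent or sham operation for any group. For experimental animals they mark both molars as experimental and do not give the side that lost its antagonist. Tissue was scraped with a scalpel from the roots of extracted teeth, total RNA was purified on columns, and it was amplified and hybridised to Affymetrix whole-transcript arrays. Nothing in the labels says whether the molars of an animal were handled in the same session.

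The periodontal ligament is the band of collagen fibres, fibroblasts, vessels and nerves that holds a tooth root in its bony socket. It lies between cementum, the mineralized cover of the root, and alveolar bone, and at the neck of the tooth it meets the gum epithelium. Its cells keep a balance between matrix synthesis and breakdown and between bone formation and resorption, in which TGF-beta, BMP and Wnt signals take part. The opposite molars of an untreated animal carry the same genome, grow at the same time and chew the same food, so the difference between them holds the scatter of dissection, hybridisation and local tissue state, together with any true difference between right and left.

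Of the 5 genes taken to define the ligament, periostin (Postn), a matrix protein of collagen-rich tissue under load, was high in every array, with log2 levels of 12.15 to 13.44. Asporin (Aspn) lay at 10.67 to 12.83 and fibromodulin (Fmod) at 8.81 to 11.42, both proteoglycans that bind collagen. The tendon regulator Scx (6.60 to 7.20) and tenomodulin, Tnmd (5.03 to 7.57), were at low levels. The array medians of the controls fell into a higher set (C1, C3 and C4, 6.50 to 6.64) and a lower set (C2, C5 and C6, 6.02 to 6.17), which the labels do not name. Both molars of an animal always lay in the same set, so a shift common to both molars of an animal cancels in right minus left. The side differences could still vary with the set, as for Lox (a mean of 0.13 over C1, C3 and C4 but 0.94 over C2, C5 and C6), Mmp2 (-0.08 and 0.63) and Ccnb1 (-0.07 and -0.62), and the animals with the widest differences, C2 and C5, both lie in the lower set. All differences below are right minus left on the log2 scale, where 1 is a factor of 2. SE is the standard error from limma with the animal as a fixed block, and the mean is over 6 animals unless stated otherwise. Nothing beyond the numeral says which samples came from separate animals, so p-values measure the spread between these samples.

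No gene passed the test between the sides. Of 13624 genes tested, 0 (0%) had an adjusted p under 0.05 in limma, where the smallest adjusted p was 0.858, and 687 (5.04%) had an unadjusted p under 0.05, 297 higher (2.18%) and 390 lower (2.86%) on the right. The median SE of a difference was 0.103, and the 95% interval of the typical gene reached 0.235 to either side of its estimate. The median difference over all genes was -0.03, and 39.8% of genes lay above 0 and 60.2% below. The right molar was higher in 6 of 6 animals for 184 genes (1.35%) and lower in 6 of 6 for 301 (2.21%), together 3.56%. These counts shifted with scaling, to 194 and 414 after quantile normalization and to 232 and 277 after each array was centred on its median.

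The animals nonetheless differed widely in how far apart their molars lay. The correlation between left and right levels across genes was 0.973 in C1, 0.910 in C2, 0.977 in C3, 0.988 in C4, 0.931 in C5 and 0.979 in C6. More than 2-fold higher on the right were 4 genes in C1 (0.0294% of those tested), 491 in C2 (3.6%), 101 in C3 (0.741%), 32 in C4 (0.235%), 231 in C5 (1.7%) and 24 in C6 (0.176%). More than 2-fold lower were 123 in C1 (0.903%), 410 in C2 (3.01%), 21 in C3 (0.154%), 3 in C4 (0.022%), 545 in C5 (4%) and 86 in C6 (0.631%). C4 thus had nearly matched molars, C2 and C5 had the widest differences, and the excess lay on the left in C1, C5 and C6 and on the right in C3 and C4.

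**Figure D1:**
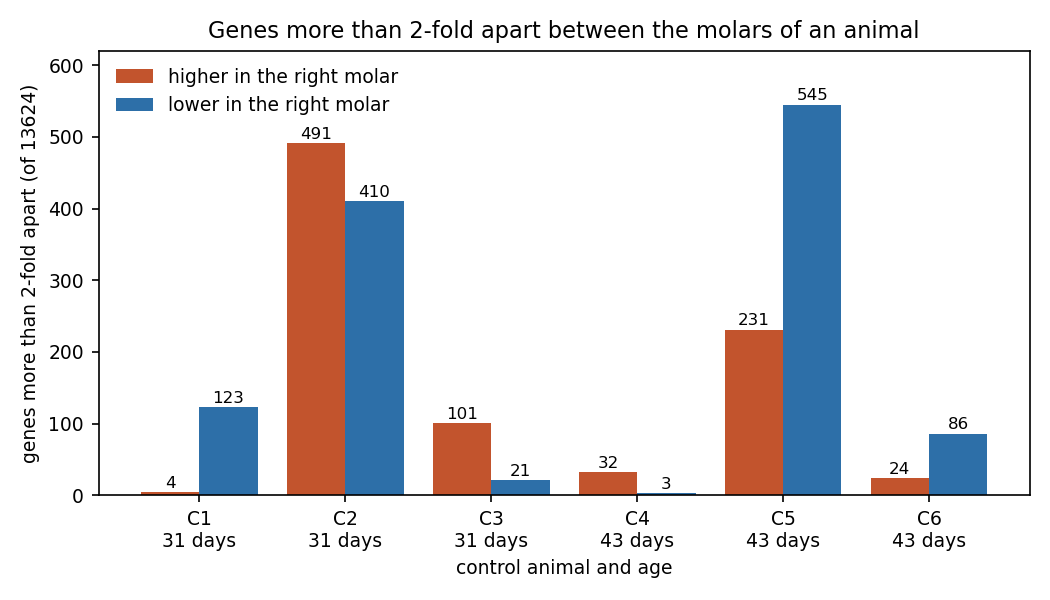
Number of the 13624 genes more than 2-fold apart between the molars of each control animal, with bars for genes higher and lower in the right molar and the counts printed on them. C2 (491 and 410 genes) and C5 (231 and 545) stand far above C4 (32 and 3).

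By the median absolute difference over genes, the molars of an animal were closer to each other than to those of other animals. This absolute difference per gene was 0.169 between the molars of an animal and 0.347 between the right molar of one and the left molar of another of the same age, over 12 such pairs. Most of the 12 pairs crossed the array sets, while no pair within an animal did, so differences between animals here include those between sets. After quantile normalization these were 0.162 and 0.205, so most of the gap between them was absent once the array distributions were matched. The median SD between molars within an animal was 0.180, and that between animals of an age 0.238, and within-animal variance was a median of 35.8% of the total as deposited but 77.0% after quantile normalization. For the typical gene the SD of the 6 differences was 0.254, and for 10% of genes it was above 0.531. The deviations of a right molar from its group mean correlated best with those of its own left partner in 3 of 6 animals (C1, C4 and C5). Only the 3 left molars of that age were compared, so an own partner can often rank first by chance. In C2, C3 and C6 the left molar of another animal of that age gave a higher value (0.13 against -0.18, 0.16 against 0.06 and 0.26 against 0.23).

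The steadiest abundant genes, chosen as those with the smallest SD among genes of log2 level 10 or more, belong to basic cell functions. Yme1l1, a mitochondrial protease, differed by -0.16 to -0.07 (SD 0.035). The capping protein subunit Capza1, of actin filaments, lay at -0.17 to -0.05 (SD 0.046), and the translation factor Eef1a1 at -0.10 to 0.03 (SD 0.048) around a level of 13.6. The proteasome subunit Psmb1 (SD 0.050) and the ubiquitin-conjugating enzyme Ube2l3 (SD 0.052) were as close. At the other end, the 10 genes with the largest SD were Krt24, Krt76, Stfa3, Tgm3, Krt10, Serpinb12, Krt1, Klk10, Them5 and Gpr15lg, with SDs of 2.29 to 3.77. Krt76, Krt10, Krt1 and Krt24 encode keratins of stratified epithelium and Tgm3 a transglutaminase that cross-links its outer layers, so several of the genes that varied most between molars belong to stratified epithelium, which covers the gum next to the ligament. In scraped tissue, fewer cells of a type and less RNA per cell cannot be told apart.

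The keratin genes are shown by the 100 bases before their gene starts, from RefSeq (assembly GRCr8), for Krt76 and Krt10, which followed one pattern over the animals, and Krt4, which followed another. Capitals mark TATAA, the core of the TATA box at which transcription machinery assembles. They were chosen after their values were seen.
Krt76: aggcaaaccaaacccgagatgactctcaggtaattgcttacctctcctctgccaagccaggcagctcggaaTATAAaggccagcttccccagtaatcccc
Krt10: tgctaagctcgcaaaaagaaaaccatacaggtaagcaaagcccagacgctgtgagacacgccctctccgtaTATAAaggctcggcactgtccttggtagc
Krt4: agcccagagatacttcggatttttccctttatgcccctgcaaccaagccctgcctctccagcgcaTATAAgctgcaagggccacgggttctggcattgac
These are chr7:134904163-134904262 for Krt76, chr10:84839161-84839260 for Krt10 and chr7:134930714-134930813 for Krt4, each on the minus strand and printed 5′ to 3′ along the gene. The letters TATAA begin 29 bases before the gene start in Krt76 and Krt10 and 35 bases before it in Krt4. Each window holds 1 match on the gene's strand and 0 on the other. Of the 33469 promoters in the same table, 7.6% hold TATAA on the gene's strand within 100 bases and 11% on either strand. The 3 windows therefore share this element, and it does not separate the pattern of Krt4 from that of the others.

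Krt76, a keratin of hard palate and gum, was abundant in the left molars of C1 (11.22), C5 (13.07) and C6 (12.41) and near 7 in the left molars of C2 (6.91), C3 (7.30) and C4 (7.52). In the 6 right molars it lay between 7.16 and 7.70. The 3 high left molars stand apart from all 9 other arrays, and no right molar was high. Its mean difference was -2.25 ± 0.944 SE, with an adjusted p of 0.858 in limma. Krt10, a keratin of cornifying layers, was at 11.27, 12.83 and 12.08 in the left molars of C1, C5 and C6 and at 6.85 to 8.60 in the other 9 arrays. Krt1, its partner in the keratin filament, followed with differences of -3.54 in C1, -5.22 in C5 and -2.96 in C6, and of -0.39 to 0.99 in C2, C3 and C4. Krt24 differed by -4.24, -7.34 and -4.74 in C1, C5 and C6, but by 3.04 in C3, where the right molar was the high one.

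A second group of epithelial genes followed another pattern. Krt13, a keratin of non-cornifying oral mucosa, was at 8.21 in the left and 12.40 in the right molar of C2, a difference of 4.19, and at 11.43 to 13.59 in the other 10 arrays. Its difference was -1.77 in C1, -1.34 in C5, -0.57 in C3, 0.18 in C4 and 0.06 in C6. Krt4, with which it pairs, differed by 3.74 in C2, and Sprr3, a protein of the cell envelope, by 4.15. In C6 these 3 genes differed by -0.02 to 0.09 while Krt76 differed by -5.24, so the cornified and the mucosal keratins did not move together there. Krt13, Krt4 and Sprr3 were picked after their values were seen.

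Across the whole oral epithelium list, 12 of 23 genes lay higher on the right, with a median of 0.01 that hides a median of 2.13 in C2 and of -0.63 in C1, -0.38 in C3, 0.26 in C4, -1.17 in C5 and -0.18 in C6. Without C2 the median was -0.52 and without C5 it was 0.27. More than 2-fold higher in C2 were 19 of the 23 (3.6% of all genes), and more than 2-fold lower were 8 in C1 (0.903%), 15 in C5 (4%) and 5 in C6 (0.631%). The mean level of the list was 7.65 in the left molar of C2 and 9.81 to 11.63 in the other 11 arrays. The left molar of C2 was thus the lowest, and the left molar of C5 the highest. With the animal's difference in this mean as a covariate, 0 genes passed and 1186 had an unadjusted p under 0.05.

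**Figure D2:**
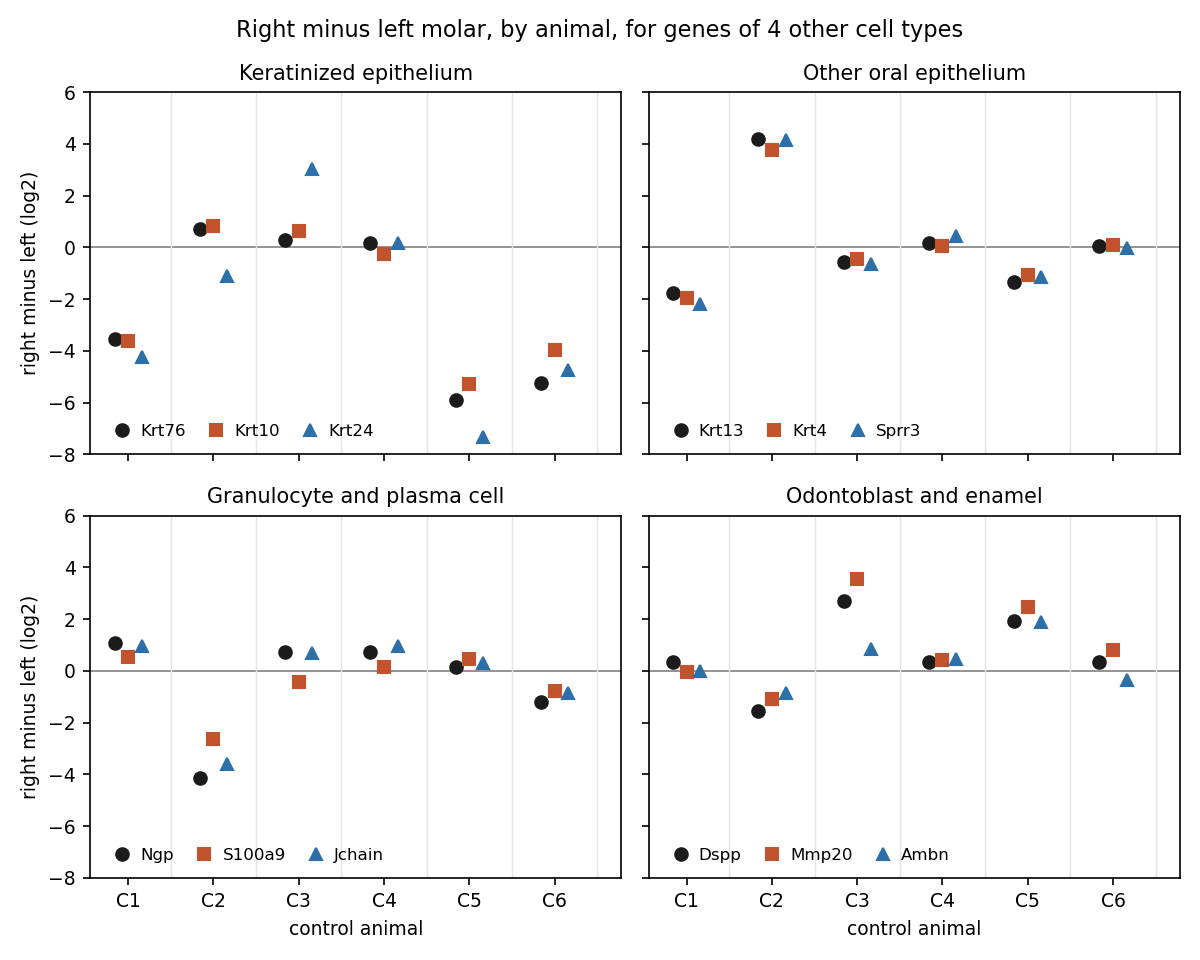
Right minus left (log2) in each control animal for 3 genes each of cornified epithelium, other oral epithelium, granulocytes and plasma cells, and odontoblasts and enamel. Krt76, Krt10 and Krt24 lie far below 0 in C1, C5 and C6, Krt13, Krt4 and Sprr3 far above 0 in C2, Ngp, S100a9 and Jchain far below 0 in C2, and Dspp and Mmp20 highest in C3 and C5.

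Blood-forming and blood cells set C2 apart as well. Ngp, a neutrophil granule protein made in marrow, was at 12.35 in its left and 8.20 in its right molar. In the other 5 animals Ngp lay between 8.14 and 10.84, with differences of -1.21 to 1.06. S100a9, a calcium-binding protein of neutrophils, was at 11.07 and 8.44 in C2 and at 8.38 to 10.05 elsewhere. The left molar of C2 had the highest level of each. Jchain, which links immunoglobulin chains in plasma cells, was at 9.29 in the left and 5.69 in the right molar of C2. The 3 largest differences of C2 toward the left were those of the granule genes Defa5 (11.89 against 7.58), Ngp and Camp (10.50 against 6.79).

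All 14 granulocyte genes had a mean below 0, with a median of -0.30, but this rested on C2, whose median was -2.73 against -0.37 to 0.53 in the other animals. Without C2 the median was 0.14. The erythroid list had 1 of 13 genes higher and a median of -0.22, with -2.07 in C2 and 0.81 in C4, and a median of 0.17 without C2. B and plasma cell genes had a median of -0.09, with -1.69 in C2, and 0.24 without it. In C2 the 410 genes lower by more than 2-fold, 3.01% of all, included 12 of the 14 granulocyte, 9 of the 10 B and plasma cell and 11 of the 13 erythroid genes. C4, whose molars matched best, had its largest list difference in red cell genes: 6 of its 32 genes over 2-fold higher were erythroid, and the haemoglobin gene Hba-a1 was at 10.92 in its left and 11.92 in its right molar.

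Genes of the tooth itself varied in C3 and C5. Dspp, the main non-collagen protein precursor of dentin, made by odontoblasts, was at 10.49 in the left and 13.20 in the right molar of C3 and at 10.48 and 12.41 in those of C5. In C1, C4 and C6 the Dspp difference was 0.32 to 0.36, and in C2 it was -1.54. Mmp20, a protease of developing enamel and dentin, differed by 3.54 in C3 and 2.46 in C5 and by -1.08 to 0.79 in the others, with a mean of 1.01 ± 0.538 SE. The left molars of C3 (7.94) and C5 (7.22) had the lowest levels of the 12 arrays, and the right molar of C3 (11.48) had the highest. Phex, a phosphate-regulating peptidase of bone and tooth, was among the largest differences of both animals, at 2.72 in C3 and 2.45 in C5. Ambn, ameloblastin, differed by 1.89 in C5 and 0.85 in C3. Of the 10 odontoblast, ameloblast and dental epithelium genes tested, 9 had a mean above 0, with a median of 0.33 that ran from -0.15 in C2 to 1.11 in C5. It was 0.18 without C5 and 0.16 without C2 and C5. Dspp, Ambn, Ngp, Jchain, Hba-a1 and the largest differences of single animals were named after their values were seen.

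Genes of the fibrous matrix were a little higher on the right in the mean, with most of the size from C2 and C5. All 27 collagen and collagen processing genes had a difference above 0, against 39.8% of all genes, with a median of 0.21 and 0 of 27 past the threshold. Their animal medians were 0.12 in C1, 0.48 in C2, 0.09 in C3, -0.13 in C4, 0.62 in C5 and 0.14 in C6. The median was 0.14 without C2 and 0.12 without C5. Without both, 19 of 27 were above 0 and the median was 0.05. Over all genes without both, 7045 of 13624 were above 0 with a median of 0.01, so the lean of all genes below 0 was then absent. The means of the 11 collagen chains tested ran from 0.08 to 0.22: Col1a1, the major fibre collagen, differed by -0.08 to 0.36 and Col1a2 by -0.14 to 0.56. Larger means were those of Lox, lysyl oxidase, which cross-links collagen, at 0.53 ± 0.197 SE, and Plod2, a lysyl hydroxylase, at 0.36 ± 0.16. Lox lay at 9.47 in the left and 11.05 in the right molar of C5 and at 10.40 to 11.84 in the other 10 arrays, so 1 left molar was low and the sides otherwise overlapped.

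Ligament and tendon fibroblast genes were above 0 in 15 of 17, with a median of 0.21 that was 0.10 without C5. Without C2 and C5 it was 0.02, with 10 of 17 above 0 (7045 of 13624 over all genes). Prelp, a leucine-rich proteoglycan that anchors basement membranes to collagen, had the smallest p of the list and was above 0 in all 6 animals, as was the proteoglycan biglycan, Bgn (0.01 in C4 to 0.94 in C5). Elastic fibre genes (10 of 13 above 0, median 0.17, or 0.10 without C5, 0.28 without C4 and 0.07 without C2 and C5) included Mfap2, a microfibril protein, at 0.39 ± 0.13 SE, with -0.12 in C4 and 0.20 to 0.97 in the others. Matrix proteases and inhibitors were above 0 in 20 of 24 with a median of 0.16. It was 0.07 without C2 and 0.06 without C5, and without both 6 of 24 were above 0 with a median of -0.07. Among them, Mmp16, a membrane-bound protease, differed by 0.67 ± 0.24 SE (from -0.17 in C2 to 1.76 in C5), and Mmp12, the macrophage elastase, by 4.47 in C2 and by -0.66 to 0.03 in the other 5. Beside these lists, the medians of most other cell types had opposite signs in C2 and C5. Oral epithelium was at 2.13 in C2 and -1.17 in C5, granulocyte genes at -2.73 and 0.20, and endothelium at -0.62 and 0.59. B and plasma cell genes were at -1.69 and 0.17, and erythroid genes at -2.07 and 0.19. The exceptions were T and NK cell genes, at -0.55 and -0.11, and adipocyte genes, at -0.02 and -0.05. The part of those cells in the matrix differences was not tested.

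Mineralized tissue genes showed a similar lean. Of 27 osteoblast, osteocyte and cementoblast genes, 23 were above 0, with a median of 0.22, 0 past the threshold, and 6 at an unadjusted p under 0.05, all higher, where 2.18% of all genes had such a p. The median was above 0 in all 6 animals, at 0.10 in C1, 0.16 in C2, 0.20 in C3, 0.03 in C4, 0.79 in C5 and 0.15 in C6. Without C2 and C5 it was 0.11, with 20 of 27 above 0 (7045 of 13624 over all genes). Sp7, osterix, the transcription factor of committed osteoblasts, was at 9.79, 9.49, 10.15, 10.41, 8.51 and 9.19 in the left molars of C1 to C6 and at 10.16, 9.65, 10.49, 10.56, 9.64 and 9.50 in the right ones. Each right molar exceeded its left partner, by 0.14 to 0.37 in 5 animals and by 1.13 in C5, but the groups overlapped (mean 0.41 ± 0.132 SE). Bglap, osteocalcin, differed by 0.41 ± 0.165, with -0.22 in C2 and 0.21 to 1.0 in the others. Smpd3, a sphingomyelinase needed for mineralization, differed by 0.56 ± 0.177, from 0.02 in C1 to 1.37 in C5. C3 and C5, the animals with the widest odontoblast differences, also had the widest Bglap differences, and the part of dental pulp or dentin in this list was not tested.

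**Figure D3:**
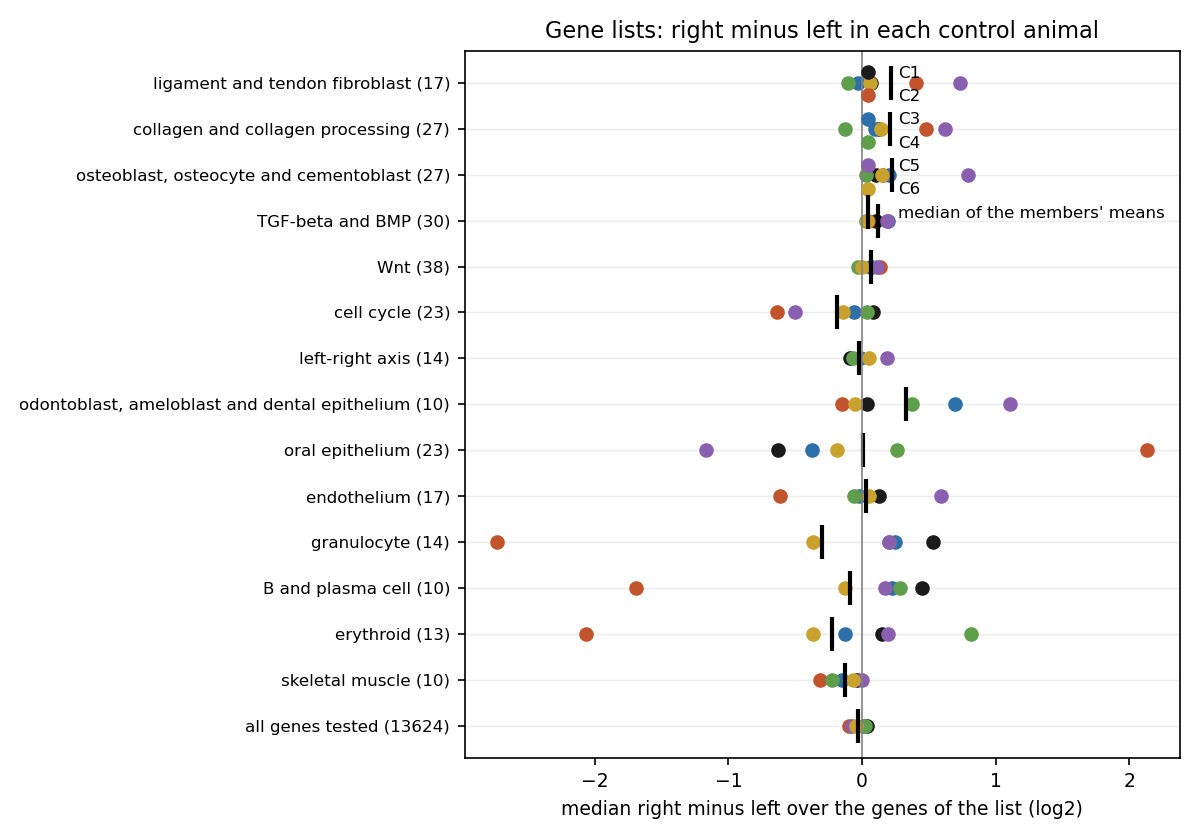
Median right minus left (log2) over the tested genes of 14 lists and over all genes, 1 point per control animal, with a bar at the median of the genes' means and the number of tested genes in brackets. Oral epithelium runs from -1.17 in C5 to 2.13 in C2 and granulocyte genes reach -2.73 in C2, while the TGF-beta and BMP points lie between 0.03 and 0.19.

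The genes with the smallest p kept their direction in 5 or 6 of the 6 animals, which choosing them by p favours. Pdpn, podoplanin, a membrane glycoprotein of lymphatic vessels, young osteocytes and basal epithelium, was at 11.37, 10.54, 11.46, 11.48, 10.61 and 10.88 in the left molars of C1 to C6. In the right molars it was at 11.77, 11.09, 11.82, 11.87, 11.27 and 11.15. The right molar was higher in 6 of 6, by 0.27 to 0.66, while the groups overlapped. On both sides C1, C3 and C4, the higher array set, lay above C2, C5 and C6, the lower set. The mean difference was 0.44 ± 0.079 SE (95% interval 0.26 to 0.62), the smallest p of all genes higher on the right, with an adjusted p of 0.858 in limma. It was 0.38 in the animals of the higher array set, 0.49 in those of the lower set and 0.44 with oral epithelium as a covariate.

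Ligands of the TGF-beta family came next. Tgfb1, the growth factor that drives collagen synthesis, was at 10.58, 10.61, 10.92, 11.04, 10.21 and 10.44 in the left and at 11.06, 11.05, 11.25, 11.23, 10.74 and 10.80 in the right molars of C1 to C6. All 6 right molars were higher than their partners, by 0.19 to 0.53, and the groups overlapped (mean 0.39 ± 0.076 SE, 95% interval 0.21 to 0.56). Bmp4, a bone morphogenetic protein of tooth and bone formation, was at 8.53, 7.52, 8.67, 9.23, 7.57 and 8.53 in the left and at 8.62, 8.03, 9.70, 9.81, 8.38 and 9.03 in the right molars. Its mean difference was 0.59 ± 0.119 (0.31 to 0.86), with 0.09 in C1 as the smallest and 1.02 in C3 as the largest. Bmp2, another ligand of this family, differed by 0.25 ± 0.072, above 0 in 6 of 6, at 0.16 to 0.42. For these 3 ligands the side difference was larger than its spread over the 6 animals, which naming them for a small p favours. Among 13624 genes none of them passed the adjustment.

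Receptors, inhibitors and targets of the same pathway are given next. Bambi, a decoy receptor, differed by 0.41 ± 0.16 SE, with -0.13 in C2, and the inhibitory factor Smad6 by 0.28 ± 0.13, with -0.16 in C2. The antagonist Nog differed by -0.06 ± 0.08 and Fst by -0.15 ± 0.13. The targets Id3 and Ccn2 had means of 0.22 ± 0.13 and 0.06 ± 0.14. Over the list of 30 genes, 23 were above 0 (39.8% of all genes were) and 5 had an unadjusted p under 0.05, all higher (2.18% of all genes), with 0 past the threshold. The list median was 0.12 and lay above 0 in each animal, at 0.11, 0.04, 0.19, 0.03, 0.19 and 0.04 in C1 to C6, so the shift was small in every one.

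Prelp, at 10.07 to 10.79 in 5 left molars and 8.99 in the left molar of C5, was at 10.34 to 11.43 in the right molars, with differences of 0.29 to 0.72 in 5 animals and 1.35 in C5. Its mean was 0.59 ± 0.141 SE (0.27 to 0.91). Other genes among the 10 with the smallest p toward the right were Fam163b (0.58 ± 0.157), Aplp1, of the amyloid precursor family (0.42 ± 0.109), Prrg1, a membrane protein with a Gla domain (0.31 ± 0.077), and Tex44 (0.31 ± 0.084), each above 0 in 6 of 6. Cntn1, contactin, a neural adhesion protein (0.45 ± 0.110), and Sdc3, the heparan sulfate proteoglycan syndecan 3 (0.36 ± 0.094), were above 0 in 5 of 6, both at -0.04 in C4. None had an adjusted p below 0.858.

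Those with the smallest p toward the left lay mostly at low levels. Foxd4, a forkhead factor, differed by -0.50 ± 0.096 SE around a left mean of 6.20, and the homeobox genes Tlx3 (-0.32 ± 0.075) and Irx2 (-0.31 ± 0.074) around left means of 6.18 and 7.38. Rgma, a co-receptor of BMP ligands and guidance molecule, differed by -0.43 ± 0.099 (left mean 6.76), and the class I histocompatibility gene RT1-M4 by -0.45 ± 0.099 (left mean 6.13). Dhrs7b, a reductase of ether lipid synthesis, was the most abundant of the group, at 8.77 on the left and 8.37 on the right, with -0.41 ± 0.096 and values of -0.73 to -0.12. Ankrd34b (-0.32 ± 0.074) and AAdacl4fm3l1 (-0.37 ± 0.087) were lower in 6 of 6 as well. Of 2 pseudogenes, whose probes may share sequence with their parent genes, Arpc1b-ps2 was at -0.37 ± 0.071 and Ctps1-ps2 at -0.77 ± 0.148, the latter with 0.02 in C3. The filter on dim genes lay at 5.81, so several of these genes were close to the lower end of what was tested.

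**Figure D4:**
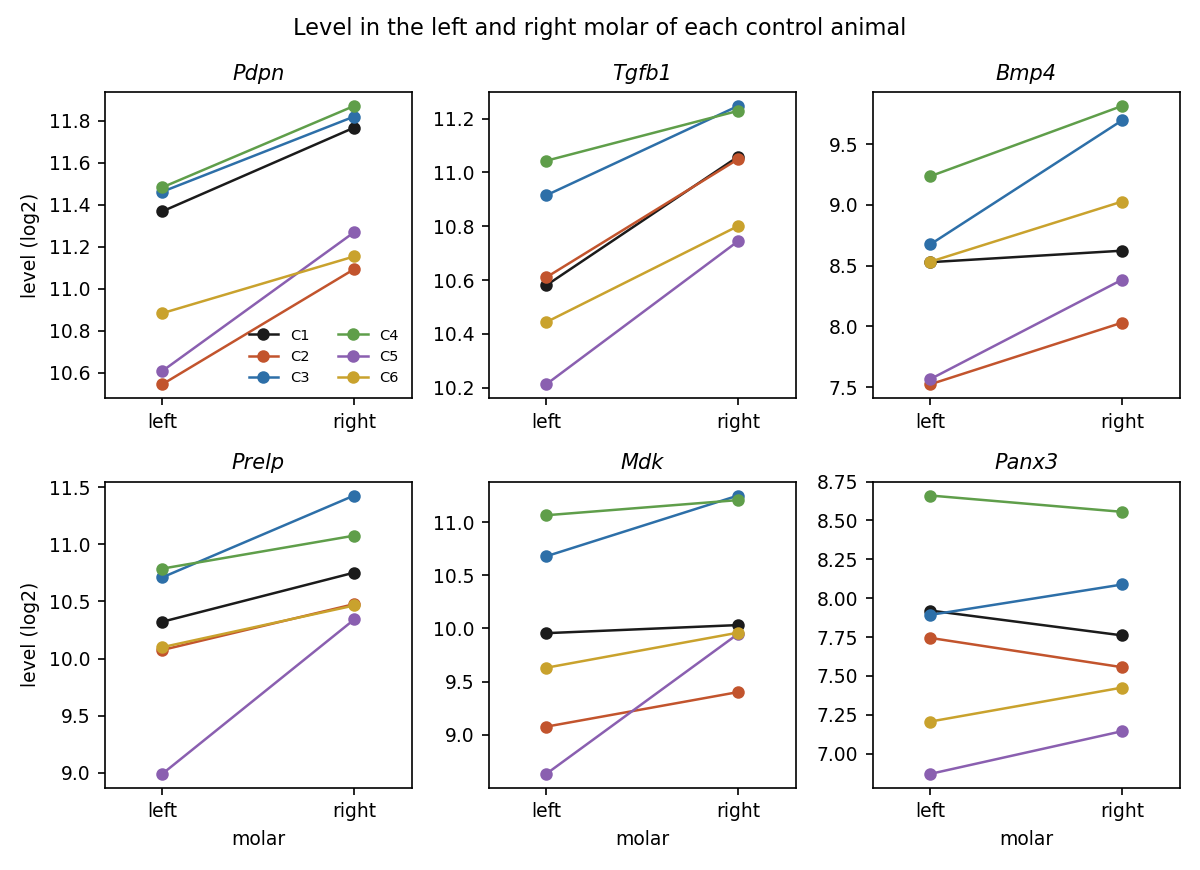
Log2 level in the left and right molar of each control animal for Pdpn, Tgfb1, Bmp4, Prelp, Mdk and Panx3, with a line joining the molars of an animal. The lines of Pdpn, Tgfb1, Bmp4, Prelp and Mdk go up in 6 of 6 animals, and those of Panx3 in 3 of 6.

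For single genes, all ways of exchanging right and left within animals were also run. The exact two-sided sign-flip test gave p = 0.03125, the smallest that 6 pairs allow, for Pdpn, Tgfb1, Bmp4, Prelp and Mdk, and these genes were picked from among 13624. That p is reached by any gene that keeps its direction in 6 of 6 animals, which 3.56% of genes did.

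Genes that set up left and right in the embryo and genes that pattern the jaw were examined as 2 lists. Nodal, the ligand that is switched on at the left side of the early embryo, differed by -0.65 to 0.30 around a level of 6.61 on the left and 6.49 on the right. Dand5, which antagonizes Nodal, was at -0.22 ± 0.08 SE and below 0 in 6 of 6, at levels of 6.35 and 6.12. Of 30 genes on this list 14 were tested, 6 of them above 0, with a median of -0.02, against -0.03 over all genes, that ran from -0.07 without C6 to 0.02 without C3. The tested genes with the smallest p were Bmp4, Dand5 and Tgfb2 (0.27 ± 0.11), and Bmp4 and Tgfb2 are on the TGF-beta list too. Of 26 jaw and branchial arch genes 18 were above 0 (median 0.16, or 0.08 without C3), and the median was below 0 in C2, at -0.24. Edn1, endothelin 1, which patterns the lower jaw, differed by -0.32 ± 0.11 and was lower in 5 of 6. Its target Hand2 differed by 0.27 ± 0.11 and the homeobox gene Dlx4 by 0.30 ± 0.12, each higher in 5 of 6.

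Among other growth signals, 24 of 38 Wnt genes were above 0, against 39.8% of all genes, with a median of 0.06 that was 0.01 without C2. At an unadjusted p under 0.05, 7 were higher on the right (2.18% of all genes) and 1 lower (2.86%). Dkk1, an inhibitor of Wnt signalling that is on the dental list as well, was at 7.01 to 8.50 on the left and 7.52 to 8.94 on the right, with differences of 0.05 in C2, 0.40 to 0.42 in C1, C4 and C6, 1.45 in C3 and 1.61 in C5. Its mean was 0.73 ± 0.212 SE, and the 2 widest values were in the animals with the widest Dspp differences. Axin2, a target of Wnt signalling, differed by 0.09 to 0.51 (mean 0.26 ± 0.084), above 0 in 6 of 6. The ligand Wnt5a differed by 0.30 ± 0.091, with -0.08 in C4, and Wnt16 by -0.36 ± 0.12. Of 25 IGF, FGF, PDGF and midkine genes 19 were above 0 (median 0.15, or 0.03 without C5). Pdgfc and Pdgfd, ligands for receptors on fibroblasts, differed by 0.41 ± 0.15 and 0.37 ± 0.16.

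All 23 cell cycle genes had a mean below 0, with a median of -0.19. The animal medians were 0.08, -0.64, -0.06, 0.04, -0.50 and -0.15 in C1 to C6, so the value came from C2 and C5. Without C2 it was -0.10, and without both 12 of 23 were above 0 with a median of 0.01. Over all genes without both, 7045 of 13624 were above 0, with a median of 0.01 too. Ccnb1, cyclin B1, which drives entry into mitosis, differed by -0.34 ± 0.13 SE. In C2 the lower cell cycle genes came beside lower granulocyte and erythroid genes, and in C5 beside lower oral epithelium, whose part was not tested. Of 22 skeletal muscle genes, the 10 that passed the filter on dim genes were all below 0 (60.2% of all genes were), with a median of -0.13. They were led by myoglobin, Mb, at -0.42 ± 0.110 and below 0 in 6 of 6. Muscle means of controls were low on both sides, at 5.89 to 6.80 on the left and 5.84 to 6.60 on the right. The filter used the mean of all 23 arrays, and muscle means were 8.13 and 7.90 in the right molars of E1 and E7.

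Age made no detectable difference to the comparison of sides. At 31 days (C1, C2 and C3) 0 genes passed in limma, with 288 (2.11%) at an unadjusted p under 0.05 and a smallest adjusted p of 0.998. At 43 days (C4, C5 and C6) 0 passed, with 354 (2.6%) and 0.964. The difference between the ages had 0 genes past the threshold and 140 (1.03%) at an unadjusted p under 0.05, and its typical 95% interval reached 0.495 to either side, so smaller differences could not be seen for the typical gene. At 31 days the smallest p included Robo1, a guidance receptor (0.51 ± 0.13 SE), Moxd1 (0.44 ± 0.12), Cntn1 (0.61 ± 0.14), the homeobox gene Hoxc9 (-0.43 ± 0.11) and Lrfn2, a synaptic adhesion protein (-0.50 ± 0.11). The 43-day values of those 5 genes were 0.16, 0.11, 0.28, -0.21 and 0.05. At 43 days they included the cytochrome Cyp4b1 (-1.52 ± 0.29) and the epithelial protease inhibitor Serpinb13 (-1.33 ± 0.31). Both had their lowest right-minus-left differences in C5 and C6, the animals of that age with much Krt76 in the left molar.

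The control animals give the background for the side differences of experimental animals. Panx3, Ptx3, Mdk and Adamts18 are shown because they were described earlier in experimental animals. That choice favoured a difference from controls, so the comparison lends them no separate support. Panx3, a pannexin channel found in bone-forming and cartilage cells, was at 7.92, 7.74, 7.89, 8.66, 6.87 and 7.21 in the left and at 7.76, 7.56, 8.09, 8.56, 7.14 and 7.42 in the right molars of C1 to C6. The right molar had the higher level in 3 of the 6, and the mean difference was 0.04 ± 0.093 SE with a 95% interval of -0.17 to 0.25. The exact sign-flip p was 0.625. In E1, E3, E4, E5 and E7 the differences were 2.06, 3.23, 1.98, 0.45 and 0.39, all above the highest control value of 0.28, although E5 and E7 were close to it. The difference between conditions was -1.58 ± 0.42 (control minus experimental), with an adjusted p of 0.616 in limma.

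Ptx3, a pentraxin of innate immunity, differed by -0.38 to 0.30 in controls (mean -0.13 ± 0.109 SE) and by 0.21 to 1.56 in experimental animals, so the groups overlapped. The difference between conditions was -1.08 ± 0.22 and did not pass the adjustment. Mdk, the growth factor midkine, had the higher level in all 6 right molars of controls, by 0.08, 0.33, 0.57, 0.14, 1.32 and 0.33, with a mean of 0.46 ± 0.157 (0.10 to 0.82) that did not pass the adjustment and was 0.28 without C2 and C5. In the 5 experimental animals the Mdk difference was 0.25 to 1.97, and the difference between conditions was -0.70 ± 0.30, with an adjusted p of 0.616. The control value of C5 (1.32) was above those of E1, E5 and E7. Adamts18, a protease, had a control mean of -0.01 ± 0.173, with values of -0.56 to 0.83. In E1, E3, E4, E5 and E7 it differed by 1.51, 2.21, 1.62, -0.24 and -0.59, so the groups overlapped, and the difference between conditions was -0.91 ± 0.47 with an adjusted p of 0.616.

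Over all genes, 0 passed for control minus experimental side differences in limma, with a smallest adjusted p of 0.221 and 954 (7%) at an unadjusted p under 0.05. Megf6, a secreted protein with EGF-like repeats, had differences of -0.48 to 0.04 in controls and 0.47 to 1.17 in experimental animals (-0.93 ± 0.149 SE, adjusted p 0.221). Cnih2, an auxiliary subunit of glutamate receptors, had -0.34 to 0.22 and 0.64 to 1.0 (-0.86 ± 0.138, adjusted p 0.221). For both genes, picked by their small p in this comparison, the groups of animals did not overlap, as for 97 of all genes (0.712%). By another criterion, every control animal lay on one side of 0 and every experimental animal on the other for 16 genes (0.117%). The experimental animals also differed in other cell types, as E4 had 1357 genes over 2-fold apart and a mean oral epithelium level of 11.32 on the left and 7.55 on the right, and the part of those cells was not tested.

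**Figure D5:**
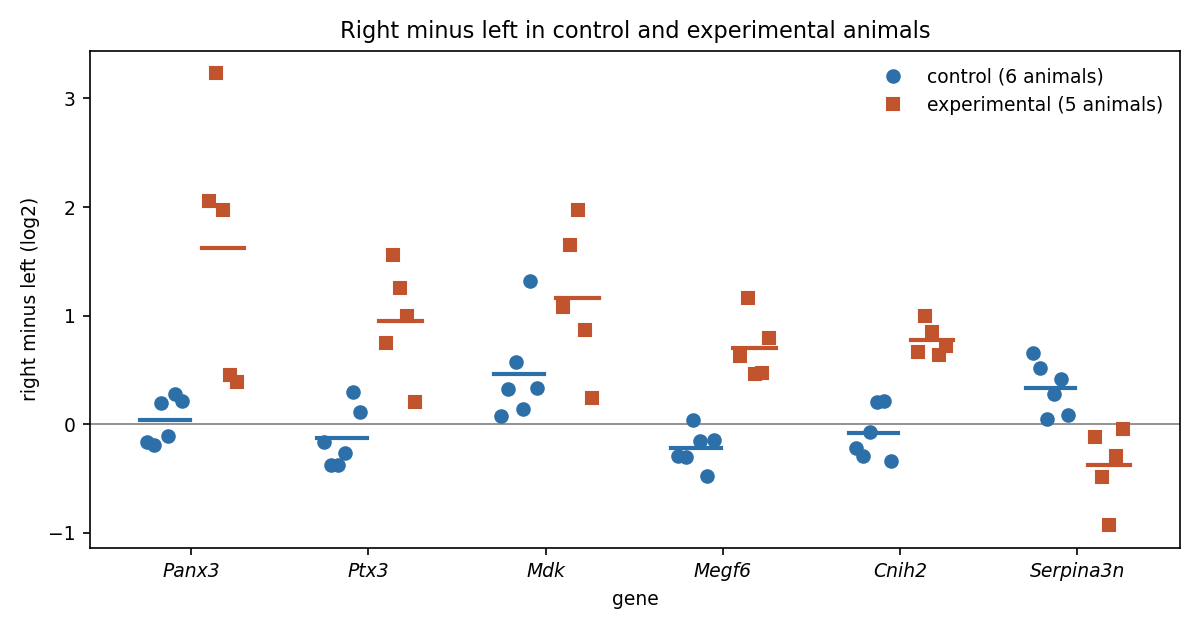
Right minus left (log2) for 6 genes in the 6 control animals (circles) and the 5 experimental animals with both molars (squares), with a line at each mean. Panx3 lies between -0.19 and 0.28 in controls and between 0.39 and 3.23 in experimental animals, while Mdk is above 0 in all 11 animals.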

How the data were processed

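For 36685 probe sets on 23 arrays, the authors deposited log2 values. The submitters' processing notes name RMA, which corrects background and normalizes between arrays, and the software Partek, without versions or settings. A platform table gave 1 symbol for 18511 probe sets, several for 575 and none for 17599. Entrez identifiers of 18394 matched RefSeq (GRCr8), which changed 0 symbols. Of 18166 genes, each by its brightest probe set, those with a mean over all 23 arrays below the 25th percentile (5.81) were left out, leaving 13624.

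Two-sided tests were made with limma 3.58.1 (R 4.3.3, with statmod 1.5.0 for random blocks) on the 12 control arrays with the animal as a fixed block (22 arrays for the comparison with experimental animals), with Benjamini-Hochberg adjustment over the genes tested and a threshold of 0.05. The fit was tested on simulated data. Whether numerals pair molars was checked by correlating deviations from group means across genes, which gave 0.15, -0.18, 0.06, 0.46, 0.15 and 0.23 in C1 to C6. Among the 3 left molars of that age, the own one gave the highest value in 3 of 6 (C1, C4 and C5). In C2, C3 and C6 another animal's left molar did (0.13, 0.16 and 0.26). With so few to compare, an own partner can often rank first by chance. The pairing was kept because the comparison is defined by it. The number of arrays limits the precision, since arrays have no read depth.

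Named were the 10 genes with the smallest p in each direction (5 for ages and differences between groups), the 3 genes of each list with the smallest p, the genes with the largest and smallest SD, and 4 genes described earlier in experimental animals. Placeholder loci and receptor genes for smell were passed over. Other members of the TGF-beta, Wnt, collagen, left-right and dental lists were added after their values were seen, as stated for the others in the text. The comparison, the members and the 33 lists were chosen with earlier results of these data known. Of the salivary gland list 0 genes were tested. Alternatives were other scalings, filters, probe set rules, blocks and variance priors, left-out animals, the array sets and oral epithelium as a covariate.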

Additional observations from a re-analysis of the deposited data

Results flagged for a closer look

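In 192 sets of 6 animal differences, of named genes and of lists, 18 had 1 animal far from the other 5 by Dixon's criterion, 12 of them in C2 and 3 in C5. Chance alone gives about 1 in 20 for independent sets with normal spread. These sets share genes and animals, and many genes were chosen for a small p or a large SD, so the count cannot be judged against that rate. For C2 these were Cd79a (-2.09), Ctsk (1.07), Cyssl3 (0.82), Hdc (-1.09), Lck (-0.84), Myl1 (-0.67), S100a8 (-2.20) and Tie1 (-1.06). The list medians of C2 that stood apart were granulocyte (-2.73), B and plasma cell (-1.69), osteoclast (0.77) and heat shock and unfolded protein genes (0.14). Ctsk, the collagen-degrading protease of osteoclasts, was at 11.67 in the left and 12.74 in the right molar of C2. Its difference was thus opposite in direction to that of the granulocyte genes, which were higher in the left molar. In C5 these were Sp7 (1.13) and the medians of osteoblast, osteocyte and cementoblast (0.79) and IGF, FGF, PDGF and midkine genes (0.71). The others were Cd8b in C6 (0.41), Tlx3 in C1 (-0.083) and the adipocyte median in C1 (-0.17).

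Named genes for which every animal of one group lay on one side of 0 and every animal of the other on the opposite side were 11. Some were named for a small p in the same contrast, which favours opposite signs. Over all genes this held for 16 (0.117%) between control and experimental animals and for 165 (1.21%) between the ages. For control against experimental animals the difference of the side differences was -0.61 for the complement protease Cfd, 0.74 for Cyssl3, -0.72 for the T cell kinase Lck and 0.71 for the acute phase protein Serpina3n. For 43 against 31 days in controls it was 0.56 for Lrfn2, 0.51 for Neurl2, -0.51 for Park7-ps2, -0.54 for Rps3a, -0.52 for Utp3, 0.56 for Zfp136 and 0.52 for Zp3. The difference was tested by limma for each, and 0 of the 11 passed after adjustment.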

How the results depend on the processing

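In each of 93 alternatives over the 5 comparisons, limma called 0 genes, as it did in the primary analysis. For right minus left over both ages the number of genes at an unadjusted p under 0.05 ran from 122 with no replicate block, which leaves the pairing of molars out, to 1585 within the higher array set, around the 687 reported. It was 821 within the lower set, 798 after quantile normalization, 555 with all 23 arrays and the animal as a random block, 1077 without C2 and C5 (added after the data were seen) and 479 to 1305 with each animal left out, the highest without C2. It ran from 24 to 1167 at 31 days, from 98 to 1071 at 43 days, from 11 to 581 between the ages and from 227 to 2822 for control minus experimental animals. Of 3590 values of named genes under alternatives, 2 moved by more than the SD over animals, as did 2 of 297 list medians. The 2 gene values were those of C1ql2 at 31 days after quantile normalization, at -0.48 in both fits, and the 2 list medians those of adipocyte genes, -0.08 without C2 and -0.09 without C2 and C5. With 6 animals, the typical 95% interval (0.235 to either side, not adjusted) limits what could be seen, and larger differences could also fail the adjustment. Genes near the filter on dim values are the least certain.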

Other observations

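Vessel and nerve genes showed no shared lean. Of 17 endothelial genes 10 lay higher on the right, with a median of 0.03, from -0.62 in C2 to 0.59 in C5, which was 0.13 without C2 and -0.11 without C5. The lymphatic receptor gene Flt4 differed by -0.19 ± 0.13 SE, while Pdpn, which lymphatic vessels also make, had a difference of 0.44. Among nerve and glia genes 5 of 12 were higher (median -0.04), with the myelin genes Mbp at -0.32 ± 0.13 and Pmp22 at 0.35 ± 0.16 in opposite directions. Circadian clock genes were close, with a median of 0.02 and animal medians of -0.17 to 0.13. Early response genes, which respond quickly to handling, had a median of -0.05, with 5 of 21 higher (39.8% of all genes were) and -0.47 in C5. The median of these genes was -0.11 without C4 and -0.02 without C5. Interferon-induced genes had a median of -0.01, from -0.44 in C2 to 0.22 in C5, which was 0.05 without C2 and -0.10 without C4, although Gbp2 was higher on the right in 6 of 6, at 0.26 ± 0.08.

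Across genes, the right-minus-left profiles of C1 and C5 correlated at 0.48 and those of C5 and C6 at 0.46, while those of C2 and C3 correlated at -0.34. Genes are not independent replicates, and these animals share no array.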
